A study of Mus musculus with 6 samples.

Results

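Extracellular matrix proteases and their inhibitors were followed in RNA of mouse kidney glomeruli, the capillary tufts that filter the blood. They are 6 ADAMTS proteases (Adamts1, Adamts2, Adamts5, Adamts9, Adamts10 and Adamts15), 2 matrix metalloproteinases (Mmp2 and Mmp14) and 2 tissue inhibitors of metalloproteinases (Timp2 and Timp3). They were chosen by name, through the NCBI Gene identifier of each row, and all 10 were present among the 27179 features of the deposited table. All 10 also passed the filter of a mean of at least 10 normalised counts, so every one was tested. Glomeruli were isolated by magnetic bead perfusion from male mice of 9 weeks on a C57BL/6 mixed strain, described by the labels as mildly proteinuric. Both groups carried the floxed Parva allele (Parva-fl/fl). The 3 KO mice also carried hNPHS2Cre, a Cre driven by the human promoter of podocin and therefore active in podocytes, while the 3 control mice, labelled WT, had no Cre. Parva encodes alpha-parvin, an adaptor between integrin-linked kinase and actin, and the comparison asks how glomerular RNA differs when it is deleted in podocytes.

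ADAMTS proteases are secreted zinc enzymes whose thrombospondin repeats tether them to the matrix. Adamts1, Adamts5, Adamts9 and Adamts15 belong to the branch that cleaves proteoglycans such as versican and aggrecan, Adamts2 trims the ends of procollagens, and Adamts10 binds fibrillin microfibrils. Mmp14 is a membrane-anchored collagenase that activates pro-Mmp2, a gelatinase that degrades type IV collagen, and Timp2 at a low dose bridges the pair while at a high dose it blocks them. Timp3 stays bound to the matrix and inhibits several ADAMTS enzymes as well as MMPs. In glomeruli these enzymes act around the basement membrane and the mesangial matrix.

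The enzymes share the stretch that holds the catalytic zinc, and the inhibitors share the cysteine stretch that plugs the same site. Both were read from the longest annotated coding transcript of each gene in GENCODE M21 (mouse build mm10). The zinc-binding motif was found once in each of the 8 listed proteases and in 34 of 34 other ADAMTS and MMP genes. The 8 protease stretches of 33 bases are shown because an exon junction splits them in the ADAMTS genes and not in the MMP genes, with the codons of the zinc-binding histidines in capitals.
Adamts1: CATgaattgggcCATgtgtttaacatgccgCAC
Adamts9: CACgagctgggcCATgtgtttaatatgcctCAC
Adamts15: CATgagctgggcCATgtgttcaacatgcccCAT
Adamts2: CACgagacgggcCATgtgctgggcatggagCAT
Adamts5: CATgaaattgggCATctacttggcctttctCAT
Adamts10: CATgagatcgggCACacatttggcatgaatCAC
Mmp2: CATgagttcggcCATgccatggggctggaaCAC
Mmp14: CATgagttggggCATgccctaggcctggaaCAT
Adamts1, Adamts9 and Adamts15 shared 28 of 33 bases in each pairing, whereas Adamts5 and Adamts1 shared 20 of 33. Mmp2 and Mmp14 shared 27 of 33 bases. The letters did not follow the family names throughout, since Adamts2 and Mmp14 shared 24 bases, Adamts5 and Mmp14 22, and the pairings of the 8 stretches ranged from 18 to 28. In all 6 listed ADAMTS genes, and in 13 of 13 others, an exon junction split the stretch, while in both listed MMP genes, and in 21 of 21 others, it lay inside 1 exon. For Adamts5 the stretch ran over exons 2 and 3 on the minus strand (chr16:85878015-85887826, intron included), and for Mmp14 it lay in exon 5 on the plus strand (chr14:54437627-54437659).

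In the inhibitors the capitals mark the codons of the first cysteine pair of the stretch. Its leading cysteine binds the zinc of the enzyme in the mature protein. A search with a fixed residue pattern matched the stretch in 3 of the 4 TIMP genes. A gene without a match may still hold these cysteines among differing residues.
Timp2: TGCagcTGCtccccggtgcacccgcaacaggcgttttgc
Timp3: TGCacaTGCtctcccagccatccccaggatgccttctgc
These stretches shared 25 of 39 bases, and each lay in exon 1 of its gene.

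The 6 libraries held 11886828 to 20552984 whole reads. Values of single libraries are given in the order of replicates 1 to 3 throughout. Parva had 6585, 7520 and 7890 normalised counts in WT and 2288, 2338 and 1942 in KO, in the direction that the labels give. Markers of other glomerular and tubular cells moved with genotype. Of 14 proximal tubule markers 13 rose, with list means on the log2 scale of 11.5 to 12.7 in WT and 13.0 to 13.6 in KO, and WT-1 was the highest WT library. Of 12 endothelial markers 10 fell and of 10 mesangial markers 8 fell, with median log2 differences of -0.64 and -0.66, and of 10 podocyte markers 3 fell (median -0.60). Of 5 parietal epithelium markers 4 rose, and of 8 distal tubule and collecting duct markers 3. Over all genes tested, 13.5% were called as higher in KO and 8.58% as lower. The defining podocyte gene Nphs1 was at 12338 to 20698 normalised counts over the 6 libraries, the mesangial Pdgfrb at 2983 to 7411, the endothelial Flt1 at 1428 to 2575 and the tubular Lrp2 at 2756 to 12522. Of 6 fibroblast markers 4 were tested and 2 fell (median -0.64); Dpt and Lum were at most 3.40 and 2.27 normalised counts, while Pdgfra ranged from 557 to 1433 and Pi16 from 2684 to 5971. Part of the depth lay in 10 genes counted almost wholly in 1 library each, none of them among the ADAMTS, MMP and TIMP genes. Together they held 30.1%, 17.4% and 32.4% of the reads in the WT libraries and 28.5%, 0.24% and 0.24% in the KO libraries. The range of whole reads given above includes them.

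Timp3 was the most abundant of the 10 transcripts in every library, and per kilobase both inhibitors stood above all 8 proteases. Levels of different genes are compared as normalised counts per kilobase of annotated exon. On this scale the WT means were 3607 for Timp3, 1586 for Timp2, 831 for Adamts5, 611 for Adamts1, 240 for Mmp2, 161 for Mmp14 and 74.5 for Adamts10. The remaining 3 were far lower, at 9.97 for Adamts9, 4.87 for Adamts15 and 3.04 for Adamts2. Among the WT libraries, neighbours in this order did not overlap, except Adamts15 (2.20 to 7.97) and Adamts2 (2.21 to 3.82). In KO the ranges of the 2 leading proteases overlapped, at 471 to 572 per kilobase for Adamts1 and 469 to 518 for Adamts5. Within each KO library Adamts5 lay below Adamts1, at 98.0%, 99.5% and 90.6% of its level.

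**Figure D1:**
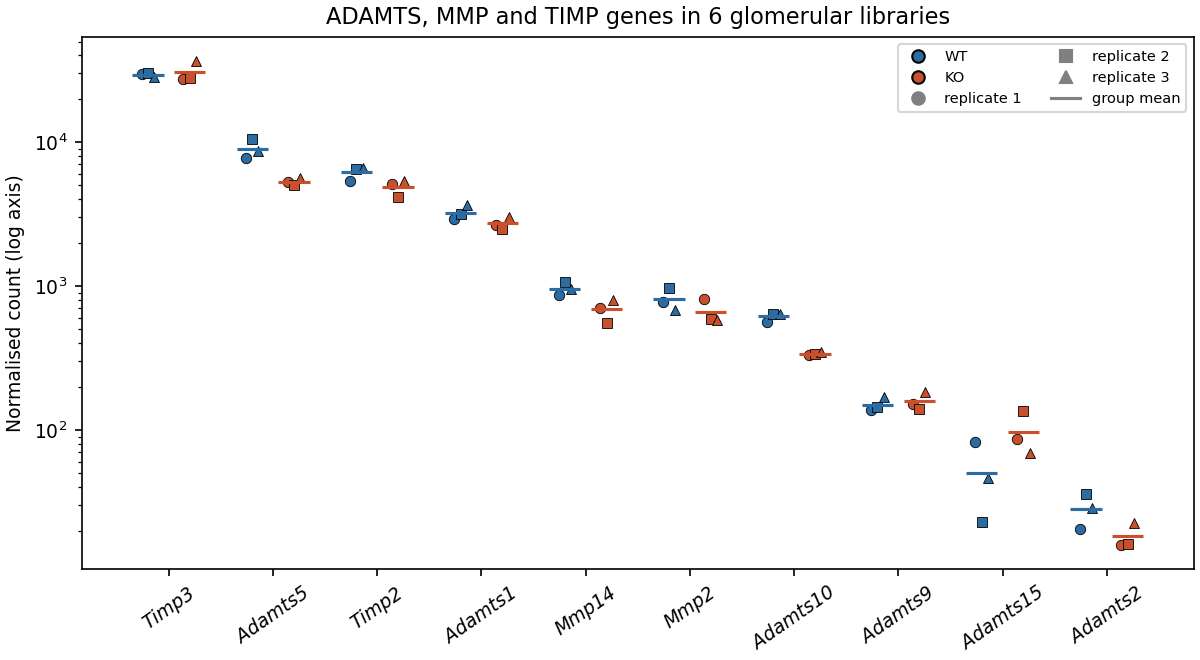
Normalised counts (log axis) of the 10 genes in each WT (blue) and KO (orange) library, with marker shapes for replicates 1 to 3 and horizontal lines for group means; the genes are ordered by their mean. Adamts5 and Adamts10 stand apart between the groups, at KO means of 5310 and 338 against WT means of 8965 and 615, while Timp3 overlaps.

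Adamts5 and Adamts10 were the 2 of 10 genes that passed the test between genotypes, and both fell in KO. The test was limma on log2(normalised count + 1) with Benjamini-Hochberg adjustment over 13946 genes, at a threshold of 0.05. Over all genes tested 22.1% passed in either direction and 8.58% as lower in KO, so the number called among the 10 is close to the background of these libraries. On the recovered reads, edgeR also called 2 of the 10, against 20.4% of all genes, and DESeq2 called 3, against 27.4%. The groups did not overlap in 4 of the 10 genes, all lower in KO (Adamts5, Adamts10, Mmp14 and Timp2), against 45.1% of all genes in either direction and 21.9% as lower. The KO mean was the lower in 7 of the 10, against 7055 of the 13946 genes tested. The median log2 difference of the 10 was -0.31, against -0.01 over all genes tested. These are RNA levels of whole glomeruli, in which fewer cells of a type and less RNA per cell cannot be told apart.

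Adamts5, a proteoglycan-cleaving protease (NCBI Gene 23794; mm10 chromosome 16, 85858157 to 85901125), was the most abundant protease of the set in WT. It had 7698, 10473 and 8724 normalised counts in WT and 5285, 5059 and 5588 in KO. The KO libraries were tightly grouped and lay below every WT library. The mean went from 8965 ± 1403 to 5310 ± 266 (SD, n = 3), or 0.592 of the WT mean, a log2 difference of -0.74 (SE 0.14, limma adjusted p = 0.0286). The 2-sided exact permutation test of the same values gave p = 0.1, the smallest that 3 against 3 libraries allow. The call was lost in limma without WT-2 (adjusted p = 0.107), WT-3 (0.106), KO-2 (0.109) or KO-3 (0.0696), at differences of -0.63, -0.76, -0.71 and -0.78. In the tubule-adjusted fit limma took the mean log2 level of the 14 proximal tubule markers as a further term. That level was 11.5 to 12.7 in WT and 13.0 to 13.6 in KO, so genotype and tubule content cannot be told apart well there. Under this fit Parva itself was not called (limma adjusted p = 0.689). The Adamts5 difference was -0.41 (SE 0.21, limma adjusted p = 0.999). In limma without a variance trend the adjusted p of Adamts5 was 0.0539.

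Adamts10, the fibrillin-binding member (NCBI Gene 224697; mm10 chromosome 17, 33523646 to 33553782), had the largest decrease of the 10 genes. Its normalised counts were 566, 643 and 636 in the WT libraries and 331, 337 and 346 in the KO libraries. The spread within KO was small beside the gap between the groups. The mean fell from 615 ± 42.7 to 338 ± 7.75 (SD, n = 3), which is 0.549 of the WT mean and a log2 difference of -0.86 (SE 0.09, limma adjusted p = 0.0286; exact permutation p = 0.1). Leaving out a library moved the difference only between -0.92 and -0.83, but the limma adjusted p was 0.107 when WT-2 was left out, 0.106 for WT-3, 0.109 for KO-2 and 0.0579 for KO-3. In the tubule-adjusted fit it was -0.69 (limma adjusted p = 0.999), the most negative of the 10 genes under that setting. Without a variance trend the limma adjusted p was 0.0537. No annotated exon of another gene overlapped either Adamts5 or Adamts10.

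**Figure D2:**
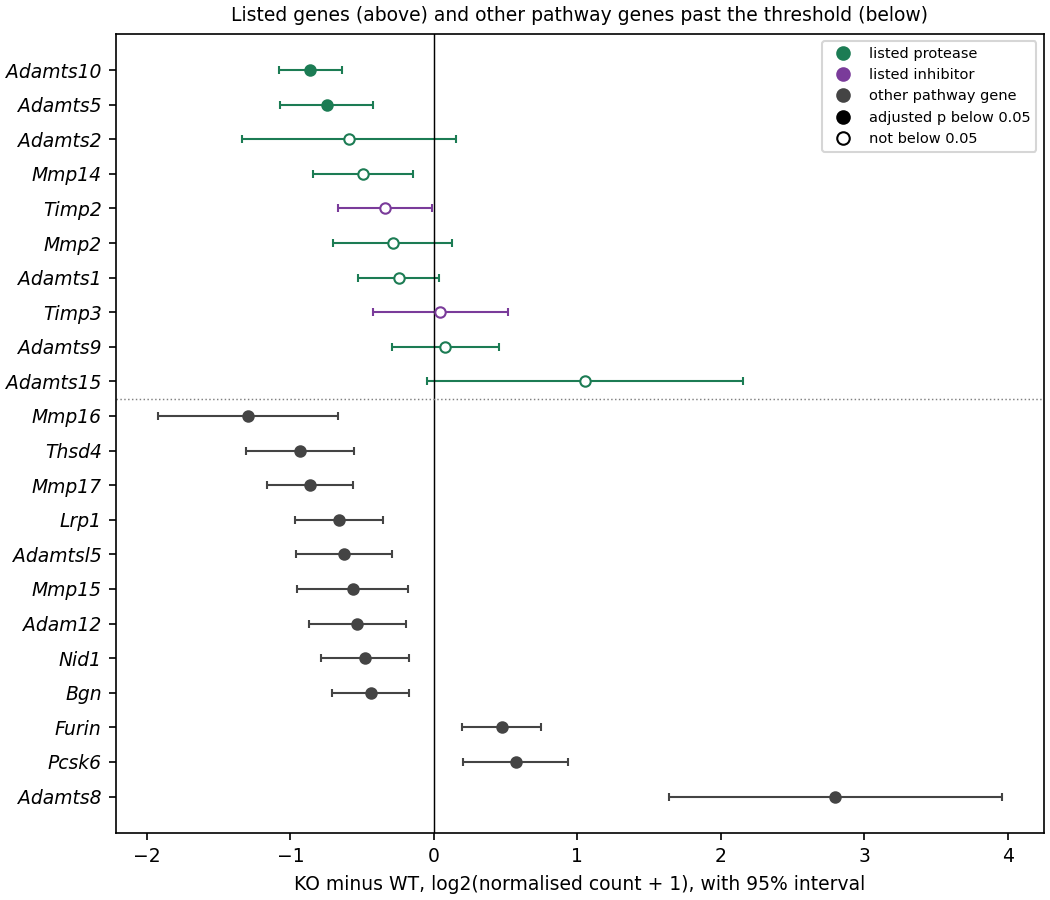
KO minus WT difference on the log2(normalised count + 1) scale with its 95% interval from limma, for the 10 listed genes (above the dotted line) and the other pathway genes past the threshold (below it); filled points have an adjusted p below 0.05. Among the listed genes Adamts10 (-0.86) and Adamts5 (-0.74) are filled, and below the line Adamts8 lies farthest to the right (2.80).

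Mmp14, Mmp2 and Timp2, the genes of the activation axis, each had a lower mean in KO, without a call for any of the 3 genes. Mmp14, the membrane-anchored activator (NCBI Gene 17387; mm10 chromosome 14, 54431598 to 54442456), had 861, 1069 and 952 normalised counts in WT and 707, 558 and 797 in KO. The groups did not overlap, and the means were 961 ± 104 and 687 ± 121 (SD, n = 3). The log2 difference of -0.49 (SE 0.15, 95% interval -0.84 to -0.14) had a limma adjusted p of 0.0538, just outside the threshold. It passed in limma with upper quartile scaling (adjusted p = 0.0459), in DESeq2 (0.0353) and in limma without WT-1 (0.0327). The tubule-adjusted difference was -0.18.

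Timp2, which both bridges and inhibits that pair (NCBI Gene 21858; mm10 chromosome 11, 118301061 to 118355411), showed a smaller separation. Its normalised counts were 5405, 6550 and 6578 in WT and 5135, 4169 and 5347 in KO. The highest KO library lay just below the lowest WT library, so the groups did not overlap by a narrow margin. The log2 difference was -0.34 (SE 0.14, limma adjusted p = 0.114). It passed without WT-1 (limma adjusted p = 0.0495, at -0.43), and was 0.04 in the tubule-adjusted fit.

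Mmp2, the gelatinase that Mmp14 activates (NCBI Gene 17390; mm10 chromosome 8, 92827290 to 92853421), had 780, 967 and 683 normalised counts in WT and 819, 591 and 585 in KO. KO-1 lay within the WT range, and the groups overlapped. The log2 difference was -0.29 (SE 0.18, 95% interval -0.70 to 0.13, limma adjusted p = 0.26). It was -0.15 without WT-2, -0.45 without KO-1 and -0.0045 in the tubule-adjusted fit.

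Of the other proteoglycan-cleaving proteases, none passed the test. Adamts1 (NCBI Gene 11504; mm10 chromosome 16, 85793827 to 85803113), which lies beside Adamts5 on the chromosome, had 2905, 3176 and 3631 normalised counts in WT and 2651, 2499 and 3031 in KO. Its KO-3 value lay above WT-1, and the log2 difference was -0.25 (SE 0.12, 95% interval -0.53 to 0.04, limma adjusted p = 0.169), or -0.16 without WT-3 and -0.0089 in the tubule-adjusted fit. Adamts9 (NCBI Gene 101401; mm10 chromosome 6, 92772699 to 92944450) had 137, 144 and 170 normalised counts in WT and 152, 141 and 184 in KO. The groups lay over each other, at a log2 difference of 0.08 (SE 0.16, 95% interval -0.29 to 0.45, limma adjusted p = 0.736), which changed sign without KO-3 (-0.028) and was 0.27 in the tubule-adjusted fit. An opposite-strand gene, A730049H05Rik, overlaps exons of Adamts9 but had at most 14.1 normalised counts.

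Adamts15 (NCBI Gene 235130; mm10 chromosome 9, 30899155 to 30922452) was the member with the largest positive difference and also the most uneven. It had 82.6, 22.8 and 46.1 normalised counts in WT and 85.9, 135 and 69.2 in KO. WT-1 lay inside the KO range, as the highest WT library, and WT-1 was also the highest WT library for the proximal tubule markers. Whether tubule content has a part in the Adamts15 values was not tested. The log2 difference of Adamts15 was 1.05 (SE 0.47, limma adjusted p = 0.139). It passed without WT-1, at 1.49 (limma adjusted p = 0.0262), fell to 0.58 without WT-2 (0.341), and was -0.49 in the tubule-adjusted fit (0.999).

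Adamts2, the procollagen N-proteinase (NCBI Gene 216725; mm10 chromosome 11, 50602085 to 50807573), was the scarcest member, with 15 to 36 reads per library. Its normalised counts were 20.6, 35.6 and 28.8 in WT and 15.9, 16.2 and 22.7 in KO, with KO-3 above WT-1. The log2 difference of -0.59 had a wide 95% interval, from -1.34 to 0.15 (SE 0.32, limma adjusted p = 0.203), and the tubule-adjusted difference was -0.037.

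Timp3, the matrix-bound inhibitor (NCBI Gene 21859; mm10 chromosome 10, 86300412 to 86349505), showed no call and no common direction. It had 29639, 30116 and 28367 normalised counts in WT and 27264, 27787 and 36641 in KO, so that KO-1 and KO-2 lay below every WT library and KO-3 above. The log2 difference was 0.04 (SE 0.20, 95% interval -0.43 to 0.51, limma adjusted p = 0.887), and it was -0.09 without KO-3. Timp3 overlaps exons of the opposite-strand gene Syn3, which had 25.7 to 199 normalised counts.

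Set against the 2 inhibitors within a library, the summed level of the 8 proteases was lower in KO, and most of the gap lay in Adamts5. These ratios are per kilobase of exon and do not depend on how libraries are scaled to each other. The 8 proteases together amounted to 34.3%, 39.6% and 37.7% of the summed Timp2 and Timp3 level in the WT libraries and to 30.2%, 28.4% and 24.9% in the KO libraries. The groups did not overlap, with means of 37.2% ± 2.67 and 27.8% ± 2.74 (SD, n = 3). The protease sum itself went from 1935 ± 203 to 1382 ± 96.5 normalised counts per kilobase, against 5192 ± 177 and 5006 ± 755 for the inhibitors (SD, n = 3), whose groups overlapped. Adamts5 alone went from 831 to 492 on this scale. These sums over chosen genes are given as a description without a test.

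Single pairs differed in this respect. Adamts5 stood at 19.6%, 26.2% and 23.2% of Timp3 in WT and at 14.6%, 13.7% and 11.5% in KO, and Adamts10 at 1.88%, 2.11% and 2.21% of Timp3 in WT and at 1.20%, 1.20% and 0.931% in KO. Adamts1 per Timp3 was separated only narrowly, at 15.1% to 19.7% in WT and 12.7% to 14.9% in KO. In the activation axis the ratios overlapped: Mmp14 was 9.46% to 10.7% of Timp2 in WT and 8.74% to 9.75% in KO, and Mmp2 was 12.0% to 17.1% of Timp2 in WT and 12.6% to 18.4% in KO, with means of 15.2% and 15.8%. Within the proteases, Adamts5 per Adamts1 was 130%, 162% and 118% in WT and 98.0%, 99.5% and 90.6% in KO.

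**Figure D3:**
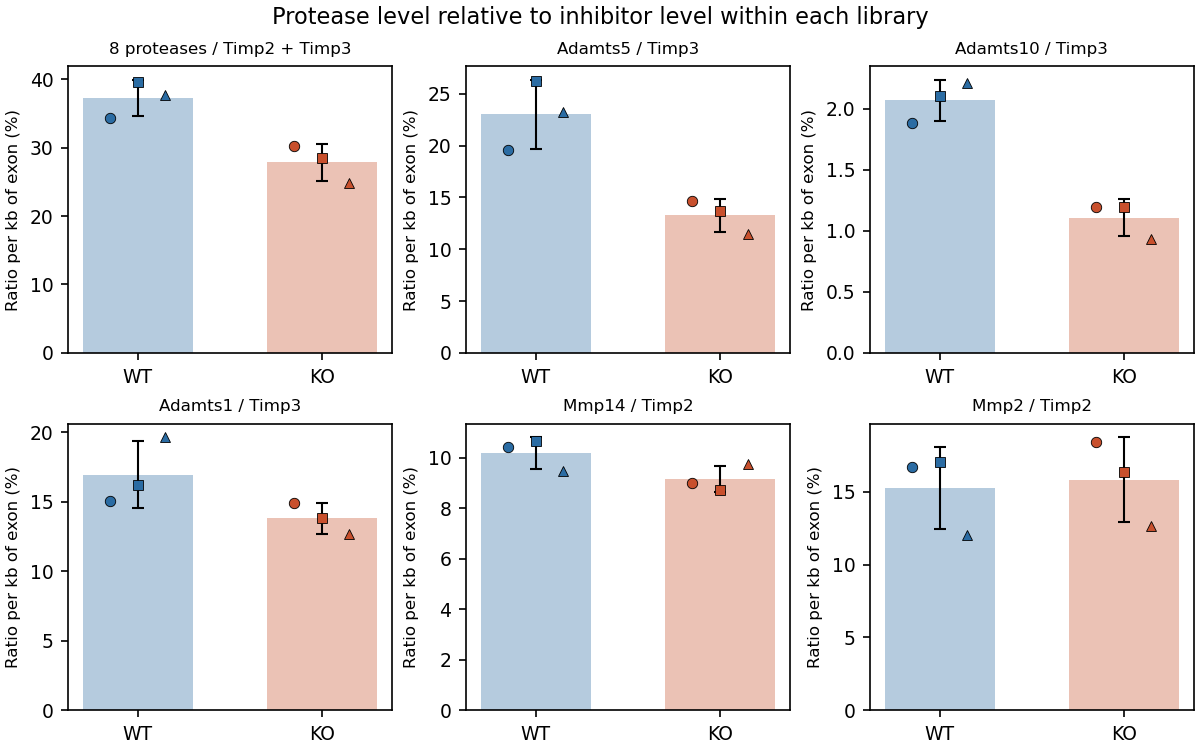
Protease level as a percentage of inhibitor level per kilobase of exon in each library (points, shapes for replicates 1 to 3), with group means (bars, from 0) and SD (error bars) for WT and KO. The upper 3 panels separate the groups, for Adamts5 per Timp3 at means of 23.0% and 13.3%. Adamts1 per Timp3 separates them only narrowly (15.1% in WT-1 against 14.9% in KO-1), whereas Mmp14 and Mmp2 per Timp2 overlap.

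The levels were also set against marker lists in the same library, since endothelial, mesangial and podocyte markers were lower in KO. Relative to the mean log2 level of the mesangial markers, Adamts5 differed by -0.06 between KO and WT, with overlapping groups, and Adamts10 by -0.17, also overlapping. Relative to the endothelial markers Adamts5 differed by -0.11, with overlap, and Adamts10 by -0.23, with no overlap. Against the podocyte markers the differences were -0.26 for Adamts5, with overlap, and -0.38 for Adamts10, with no overlap. On the same footing 5 of the 10 genes stood higher in KO with no overlap relative to both the endothelial and the mesangial markers. The differences were 0.68 and 0.73 for Timp3, 0.71 and 0.77 for Adamts9, 0.39 and 0.44 for Adamts1, 0.29 and 0.35 for Timp2, and 1.68 and 1.74 for Adamts15. The endothelial and mesangial list means themselves differed by -0.63 and -0.69, so a gene at equal levels in both genotypes also stands higher on this footing. The share of all genes that did so was not counted, so the 5 of 10 cannot be read as particular to these genes. Relative to the podocyte markers Timp3 differed by 0.53, Adamts1 by 0.24 and Timp2 by 0.14, each with overlap, and Adamts9 by 0.56 and Adamts15 by 1.53, with none. Whether a lower share of glomerular cells has a part in the lower Adamts5 and Adamts10 levels was not tested.

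Other genes of the pathway numbered 74 in 7 lists. Of the 46 that passed the filter, 3 rose and 9 fell, against 13.5% called higher and 8.58% lower over all genes tested, and their median log2 difference was -0.25, against -0.01. The total of 12 calls is close to the background of 22.1%, and the same shares are the background of each single list. With WT-2, WT-3, KO-2 or KO-3 left out, limma called none of the 46, so every call below was lost there. Among 6 tested of 13 other ADAMTS proteases, Adamts8, an aggrecan-cleaving member, rose, with 6.52, 4.95 and 5.76 normalised counts in WT and 38.1, 26.0 and 95.3 in KO (log2 difference 2.80, SE 0.49, limma adjusted p = 0.0286). Its WT libraries alone would not have passed the filter, so among the genes tested it had to be higher in KO. Adamts13, Adamts17 and Adamts19 were at 0 in every library, where 3 reads would correspond to 2.47 to 3.40 normalised counts. Adamts16, another kidney-expressed member chosen after its values were seen, had 358, 404 and 519 normalised counts in WT and 322, 299 and 147 in KO (limma adjusted p = 0.095).

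Among the ADAMTS-like proteins, which lack the protease domain, 2 of 5 tested (7 listed) fell. Thsd4, a fibrillin assembly factor, went from 108 ± 7.75 to 55.8 ± 3.19 normalised counts and Adamtsl5 from 507 ± 66.6 to 328 ± 40.7 (SD, n = 3), at log2 differences of -0.93 and -0.63 (limma adjusted p = 0.0286 and 0.0304). In the tubule-adjusted fit Thsd4 was at -0.99 and Adamtsl5 at -0.20, both past no threshold (limma adjusted p = 0.999). Fibrillin-1 itself, Fbn1, had a log2 difference of -0.41 (limma adjusted p = 0.0663), a gene named after its value was seen.

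Of 9 tested among 21 other MMPs, 3 fell and none rose. Mmp16 had 43.5, 51.5 and 44.4 normalised counts in WT and 15.1, 23.8 and 17.0 in KO (log2 difference -1.29, SE 0.27, limma adjusted p = 0.0286). Mmp17 fell from 547 ± 73.9 to 299 ± 21.6 and Mmp15 from 303 ± 65.5 to 202 ± 8.74 (SD, n = 3; limma adjusted p = 0.0286 and 0.0482). The Mmp15 call was lost in limma with a minimum mean of 1 (adjusted p = 0.0526) or no filter (0.0559) and with any 1 library left out (0.0518 to 0.141). In the tubule-adjusted fit Mmp16 was at -1.38, Mmp17 at -0.50 and Mmp15 at -0.40. The more abundant Mmp23, at 2194 ± 312 and 1599 ± 175 normalised counts (SD, n = 3), missed the threshold narrowly (limma adjusted p = 0.0501) and is named after its value was seen. Of the other inhibitors, Reck had 519 ± 63.0 normalised counts in WT and 448 ± 20.8 in KO (SD, n = 3), and Timp1, at 3.26 to 22.8 in WT and 17.3 to 43.1 in KO, was scarce in both groups. Neither passed (limma adjusted p = 0.226 and 0.234).

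Among 7 ADAM sheddases, membrane enzymes some of which Timp3 also restrains, all had a lower KO mean, against 7055 of the 13946 genes tested. Their log2 differences ran from -0.53 to -0.04, and only Adam12 was called. It fell from 244 ± 30.9 to 168 ± 16.5 (SD, n = 3, limma adjusted p = 0.041). In the matrix substrates, 2 of 11 tested fell and none rose. Biglycan (Bgn) went from 4962 ± 569 to 3642 ± 147 and nidogen-1 (Nid1), a basement membrane linker that ADAMTS1 cleaves, from 2782 ± 351 to 1989 ± 219 (SD, n = 3; limma adjusted p = 0.0366 and 0.0408). Tubule-adjusted differences were -0.15 for Adam12, -0.10 for Bgn and -0.039 for Nid1. The proteoglycan substrates Acan, Bcan and Ncan were at 0 in all 6 libraries, and versican (Vcan) at 2.66 to 7.94 normalised counts, a gene chosen after its values were seen.

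The maturation and clearance genes moved in both directions. Furin and Pcsk6, proprotein convertases of the kind that remove the inhibitory propeptide of ADAMTS enzymes and membrane MMPs, rose from 1511 ± 194 to 2093 ± 165 and from 1834 ± 267 to 2730 ± 440 normalised counts (SD, n = 3; limma adjusted p = 0.0339 and 0.0412). Lrp1, the endocytic receptor that clears several of these proteases and Timp3 from the cell surface, fell from 2129 ± 332 to 1338 ± 92.4 (SD, n = 3), a log2 difference of -0.66 (SE 0.13, limma adjusted p = 0.0286). After adjustment for the tubule markers, Furin was at 0.05, Pcsk6 at 0.30 and Lrp1 at -0.15.

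**Figure D4:**
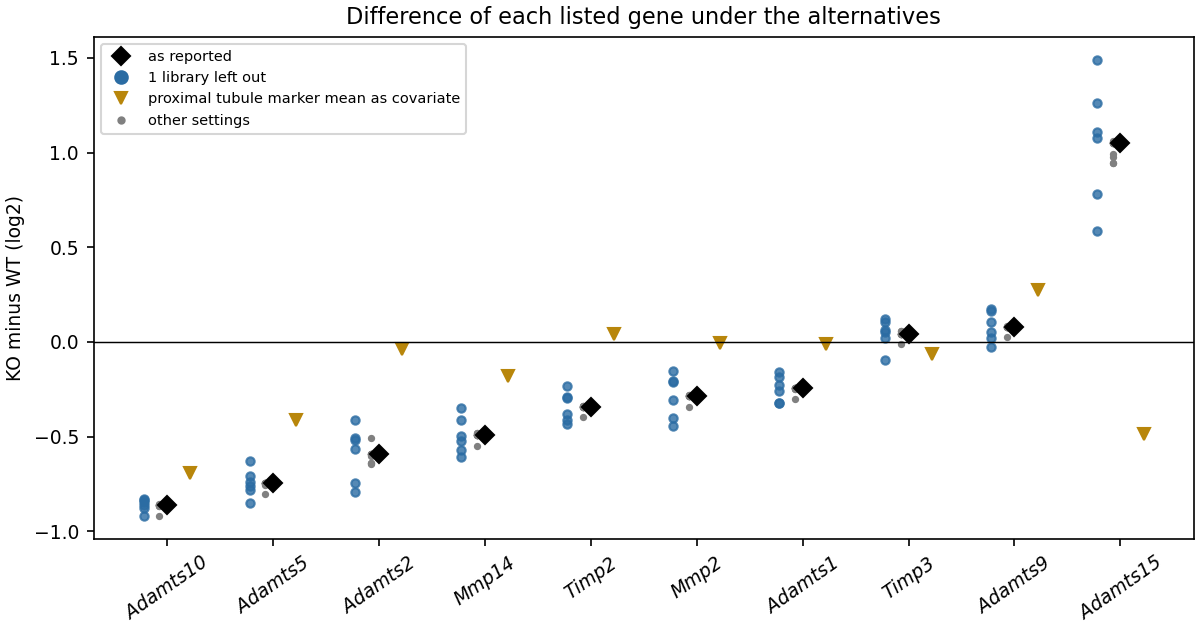
KO minus WT log2 difference of each listed gene as reported (black diamonds), with 1 library left out (blue), in the tubule-adjusted fit (triangles) and under the other settings (grey). Adamts10 and Adamts5 stay below 0 in every setting run (-0.92 to -0.69 and -0.85 to -0.41), while Adamts15 spans -0.49 to 1.49.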

How the data were processed

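RNA-seq libraries of glomeruli from 3 KO and 3 WT mice were grouped and numbered by their titles. The deposited table gives a signal per gene and library: normalised counts, that is featureCounts reads scaled by the authors with 1 size factor for each library, as the values show and per the file headers. The submitters' processing notes name DESeq2 2.11.40.6, featureCounts 1.6.4, the aligner HISAT2 2.1, the trimmer cutadapt 1.16.5 and the converter bcl2fastq 2.19, with build mm10. The strand setting is not given in the sources used here, so reads of overlapping genes on opposite strands cannot be told apart.

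Whole reads were recovered for 100% of the values in each library (tolerance 0.01 of a step). Symbols and gene positions came from a RefSeq table of the same assembly, and exon lengths and coding stretches from GENCODE M21. Unnamed identifiers held 0.493% to 1.29% of the reads. The test was limma 3.58.1 (R 4.3.3) with a variance trend on log2(normalised count + 1), pseudocount 1, for genes with a mean of at least 10, genotype as the only term and Benjamini-Hochberg adjustment over all genes tested. Differences on this scale understate changes of low genes. The members, gene lists and alternatives were chosen with earlier results of these data known. Named genes are the members, Parva, up to 6 genes past the threshold per pathway list by adjusted p, or else the 2 with the highest mean, and the defining markers Nphs1, Pdgfrb, Flt1 and Lrp2. Alternatives were a replicate block, other pseudocounts, filters and scalings, count models on the recovered reads (DESeq2 1.42.0, edgeR 4.0.16), a limma fit with no variance trend, a tubule covariate and leaving out each library. A fit without the 10 genes found mostly in 1 library was added after seeing the data. The limma, edgeR and DESeq2 fits were also run on simulated counts without variation in tubule content, and no statement here rests on that run. Counting floors of 3 reads cover counting error only, as the reads carry no molecular identifiers.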

Additional observations from a re-analysis of the deposited data

How the results depend on the processing

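Of the 10 listed genes 2 passed as reported, of the 46 other pathway genes 12 and of all 13946 genes 3085. In that order the calls were 0, 0 and 0 with the replicate block in limma (3, 18 and 4284 with an unadjusted p below 0.05), 0, 0 and 1 in limma without a variance trend (4, 21 and 5305) and 0, 0 and 0 in the tubule-adjusted limma fit (1, 3 and 393). edgeR called 2, 12 and 2841 and DESeq2 3, 15 and 3810. Leaving out 1 library gave 0 to 5 listed genes, 0 to 15 other pathway genes and 0 to 4294 of all genes. The listed genes had no call in limma without WT-2, WT-3, KO-2 or KO-3 (3, 3, 3 and 5 at an unadjusted p below 0.05), 2 without KO-1 and 5 without WT-1, and the pathway genes had 6 without KO-1. All genes gave 1, 0, 4 and 3 calls without WT-2, WT-3, KO-2 and KO-3, 4294 without WT-1 and 2062 without KO-1. The cause was not tested. Same-numbered libraries did not deviate together (correlations of -0.226, -0.191 and -0.0129, with WT-1 closest to KO-2 at 0.339). Whether the numbers pair the mice cannot be settled from 3 libraries per group. The block spends degrees of freedom, and the part of this in the lost calls was not tested.

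Signs changed in 7 of 471 alternative values of single genes, none of a called gene. In the tubule-adjusted fit Adamts15 was at -0.49, Timp2 at 0.041, Timp3 at -0.066 and Reck at 0.14. Timp3 was at -0.013 with upper quartile scaling and at -0.093 to 0.12 with 1 library left out, negative without KO-3, and Adamts9 was at -0.028 to 0.17, negative without KO-3. Adamts2 had the fewest reads of the 10 genes, 15 to 36 per library.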

Other observations

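KO-3 stood above the other libraries in several matrix and protease transcripts of the lists, all chosen after their values were seen. Fn1 had 381 normalised counts there against 60.6 to 109 elsewhere, Col1a1 90.7 against 13.3 to 32.1, and Col3a1 139 against 11.9 to 63.4. The stromelysin Mmp10 had 96.4 in KO-3 and at most 2.66 elsewhere, the macrophage elastase Mmp12 had 40.8 against 5.76 to 18.4, and Timp1 had 43.1 against 3.26 to 22.8. The mean log2 level of the 7 tested immune markers was 6.24 in KO-3, and 4.62 to 5.73 elsewhere. Its part in these values was not tested, and none of the 6 genes passed limma between genotypes.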
